A study of Homo sapiens with 6 samples.

Results

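The epithelial integrins are the genes of the integrin subunits that epithelial cells use to hold on to the extracellular matrix. They were taken by name as ITGA1, ITGA2, ITGA3, ITGA5, ITGA6, ITGAV, ITGB1, ITGB4, ITGB5 and ITGB6, and all 10 are listed among the 58024 genes of the RNA-Seq table. The table holds 3 parental and 3 enzalutamide resistant libraries of the cell line C4-2B. C4-2B is a castration resistant human prostate cancer line that was derived from LNCaP through passage in castrated mice, and enzalutamide is an antagonist of the androgen receptor. The resistant cells were grown for 6 months or more in enzalutamide at 1 to 20 µM, were pooled from the surviving fraction and were then kept in 5 µM enzalutamide. The parental cells were passaged alongside in dimethyl sulfoxide, which the series text gives as 1%, while the study's methods state a lower concentration. RNA was taken from cells in 10 µM enzalutamide, which by the wording of the methods can be read as applying to the parental cells as well. Nothing in the labels says that the 3 libraries of a group came from separate cultures, so that the p values measure the spread between these libraries, which may be technical.

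An integrin is a pair of an alpha and a beta subunit that spans the plasma membrane, and the pair decides which matrix protein is bound. ITGB1 pairs with each of the alpha subunits considered here. ITGB4 pairs with ITGA6 alone and anchors the hemidesmosome, and ITGB5 and ITGB6 pair with ITGAV alone. ITGA3 and ITGA6 form laminin receptors, ITGA1 and ITGA2 collagen receptors, and ITGA5 and ITGAV receptors for ligands with an Arg-Gly-Asp (RGD) motif such as fibronectin. Inside the cell, talin and kindlin bind the beta subunit and switch the receptor on, and focal adhesion kinases carry the signal. In the normal prostate, laminin receptors with ITGA6 sit mainly on basal cells against the basement membrane.

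Expression is given in FPKM, the fragments of a gene scaled to transcript length in kilobases and to the mapped fragments of the library, so that levels can be compared between genes per length. Each library was estimated to hold 1.34e+07 to 2.03e+07 reads, from the step that 1 read makes in the FPKM of single-transcript genes. The libraries were compared with limma on log2(FPKM + 0.1) over the 24468 genes that averaged 0.1 FPKM or more, and DEGs were those with an adjusted p (Benjamini-Hochberg) under 0.05. Of the luminal and epithelial markers, KRT8, KRT18, EPCAM, CDH1, FOXA1 and HOXB13 were above 60 FPKM in every library. The summed level of all 10 such markers was lower in the resistant libraries, at 1418 to 1517 FPKM against 4074 to 4824 FPKM. KLK3, an androgen receptor target, was the largest part of this difference, with 46.8, 43.5 and 41.8 FPKM in resistant and 2489, 2321 and 2857 FPKM in parental libraries. The 4 leukocyte markers summed to at most 1.18 FPKM, the 4 endothelial markers to at most 1.14 FPKM and the 3 basal markers to at most 0.927 FPKM in any library, with PTPRC, CD3E, PECAM1, CDH5, KDR, KRT5 and TP63 listed at 0 in every parental library. The 6 stromal markers summed to 22.7 to 28.9 FPKM in parental and 11.9 to 14.1 FPKM in resistant libraries. Of the 5 stromal markers tested, ACTA2, DCN and LUM were upregulated and VIM and PDGFRB downregulated. VIM was at 19.9 to 24.2 FPKM in parental and at 4.72 to 5.87 FPKM in resistant libraries, and DCN was listed at 0 in parental and at 3.63 to 4.35 FPKM in resistant libraries. The part of these marker shifts in the integrin results was not tested.

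Resistant cells carried more ITGA1, ITGA3, ITGAV and ITGB5 and less ITGA6 RNA, whereas no difference past the threshold was found for ITGB1, ITGA2, ITGA5 and ITGB4. Of the 10 integrins, 9 were tested, and 4 were upregulated and 1 was downregulated in enzalutamide resistant cells. ITGB6 had a mean below 0.1 FPKM and was not tested. The DEGs made up 44.4% of all genes tested, 22.1% upregulated and 22.3% downregulated. Among genes that averaged 1 FPKM or more, to which all 9 tested integrins belong, the DEGs made up 53.2%, with 24.9% upregulated and 28.3% downregulated. The 5 DEGs among the 9 integrins, or 55.6%, lie near this background, so that their number is not a result about the integrins. In 6 of the 9 the values of the groups did not overlap, against 54.8% of all genes tested and 63.3% of those averaging 1 FPKM or more. In RNA from a culture, fewer cells that express a gene and less RNA per cell cannot be told apart.

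**Figure D1:**
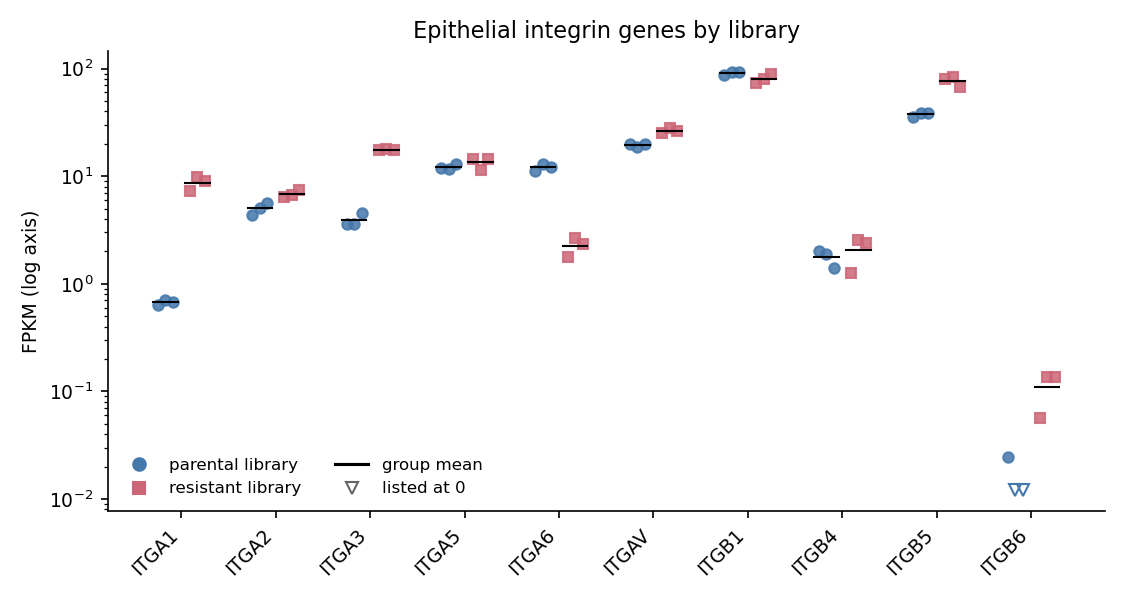
FPKM of each epithelial integrin gene (x axis) on a log axis, with 1 point per library, circles for the 3 parental and squares for the 3 resistant libraries, black lines for group means and open triangles for values listed at 0. The mean of parental ITGB6 lies below the axis and is not drawn. ITGA1, ITGA3, ITGAV and ITGB5 are higher in all resistant libraries and ITGA6 is lower in all of them, while ITGA5, ITGB1 and ITGB4 overlap.

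The laminin receptor genes moved in opposite directions. ITGA6 on chromosome 2 (GRCh38, 172427354 to 172506459, plus strand) encodes the alpha subunit shared by the hemidesmosomal and the ITGB1 laminin receptor. It was at 11.1, 13.0 and 12.1 FPKM in parental libraries and at 1.79, 2.64 and 2.33 FPKM in resistant libraries. Every resistant value lay far below every parental value, and the mean was 5.36-fold lower, from 12.1 ± 0.975 to 2.25 ± 0.431 FPKM (SD, n = 3 each). On the log2(FPKM + 0.1) scale the fold change was −2.39 (standard error 0.18, limma adjusted p = 1.61e-04), which ranged from −2.50 to −2.01 over all alternatives tried. ITGA6 was the member with the largest decrease.

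ITGA3 on chromosome 17 (50055968 to 50090481, plus strand) encodes the alpha subunit of the other epithelial laminin receptor, which pairs with ITGB1. It was at 3.60, 3.56 and 4.52 FPKM in parental libraries and at 17.5, 17.8 and 17.6 FPKM in resistant libraries. The resistant libraries were nearly alike and all of them stood above the parental ones, with means of 3.89 ± 0.545 and 17.6 ± 0.189 FPKM (SD, n = 3 each), a 4.53-fold difference. The log2 fold change was 2.16 (standard error 0.14, limma adjusted p = 7.02e-05). In parental cells the level of ITGA6 was thus above that of ITGA3 in every library, and in resistant cells that of ITGA3 was above that of ITGA6 in every library.

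ITGB4 on chromosome 17 (75721328 to 75757818, plus strand) encodes the long-tailed beta subunit that pairs with ITGA6 and links laminin to keratin filaments. It was at 2.02, 1.88 and 1.41 FPKM in parental libraries and at 1.25, 2.53 and 2.37 FPKM in resistant libraries. The groups overlapped, since resistant replicate 0 was the lowest of all and the other resistant libraries were the highest. The log2 fold change of ITGB4 was 0.16 with a 95% interval from −0.65 to 0.96 (limma adjusted p = 0.732), and without resistant replicate 1 it was −0.018. A change of ITGB4 the size of that of ITGA6 lies outside this interval.

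The collagen receptor genes ITGA1 and ITGA2 are neighbours on chromosome 5, both on the plus strand with 30130 bases between them, and their levels differed in how they moved. ITGA1 (52787916 to 52959209) was at 0.632, 0.713 and 0.673 FPKM in parental libraries and at 7.36, 9.73 and 8.99 FPKM in resistant libraries. The parental values were close together and the lowest resistant value was well above them, and the mean rose 12.9-fold, from 0.673 ± 0.0404 to 8.69 ± 1.21 FPKM (SD, n = 3 each). The log2 fold change was 3.50 (standard error 0.20, limma adjusted p = 5.05e-05), the largest among the members tested. With a pseudocount of 1 FPKM it was 2.53, since the parental level is low. The values correspond to an estimated 95 to 147 reads in parental and 1350 to 1660 reads in resistant libraries.

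ITGA2 (52989340 to 53094779) was at 4.34, 5.11 and 5.61 FPKM in parental libraries and at 6.36, 6.64 and 7.39 FPKM in resistant libraries. The groups did not overlap, but the difference was small, with a log2 fold change of 0.44 and a 95% interval from 0.06 to 0.81 (limma, unadjusted p = 0.0284, adjusted p = 0.0610). It passed the threshold under other settings, with an adjusted p of 0.0206 after median-of-ratios scaling of the libraries. ITGA1 shares 499 exonic bases with PELO, a ribosome rescue factor gene on the same strand, and reads there cannot be assigned with certainty. PELO was at 28.0, 24.3 and 28.5 FPKM in parental libraries and at 19.5, 23.0 and 21.5 FPKM in resistant libraries, and thus lower in every resistant library. The antisense gene CTD-2175A23.1, which overlaps ITGA1 and ITGA2, was listed at 0 in all libraries.

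The 250 bases before the RefSeq start are shown for these neighbours, since they share a locus and strand but not the size of the difference, and for ITGA6 and ITGB5 as members that fell and rose. RefSeq windows (GRCh38.p14) were found for 8 of the 10 members, all except ITGA3 and ITGB4, and for ITGA6 and ITGB5 the window farthest upstream is given. Capitals mark the SP1 box GGGCGG, the AP-1 sites TGACTCA and TGAGTCA, the androgen receptor half-site AGAACA and the TATA box TATAAA, each searched on both strands.
ITGA1, chr5:52787666-52787915, plus strand: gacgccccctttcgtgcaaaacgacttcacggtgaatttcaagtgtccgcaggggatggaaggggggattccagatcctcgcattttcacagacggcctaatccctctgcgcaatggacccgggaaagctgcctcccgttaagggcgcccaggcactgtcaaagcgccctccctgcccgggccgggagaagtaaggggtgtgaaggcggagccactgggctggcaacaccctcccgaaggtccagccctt
ITGA2, chr5:52989102-52989351, plus strand: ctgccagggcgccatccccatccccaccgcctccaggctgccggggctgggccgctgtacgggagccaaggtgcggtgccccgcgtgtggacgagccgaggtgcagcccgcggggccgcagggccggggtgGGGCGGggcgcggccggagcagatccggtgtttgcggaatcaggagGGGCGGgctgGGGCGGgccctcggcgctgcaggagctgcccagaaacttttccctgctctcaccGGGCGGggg
ITGA6, chr2:172427086-172427335, plus strand: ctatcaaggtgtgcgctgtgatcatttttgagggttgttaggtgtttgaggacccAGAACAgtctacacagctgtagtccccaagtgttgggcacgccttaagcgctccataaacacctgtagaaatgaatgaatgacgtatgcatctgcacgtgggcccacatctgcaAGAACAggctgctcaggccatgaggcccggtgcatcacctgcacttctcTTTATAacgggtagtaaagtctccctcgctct
ITGB5, chr3:124901419-124901668, minus strand: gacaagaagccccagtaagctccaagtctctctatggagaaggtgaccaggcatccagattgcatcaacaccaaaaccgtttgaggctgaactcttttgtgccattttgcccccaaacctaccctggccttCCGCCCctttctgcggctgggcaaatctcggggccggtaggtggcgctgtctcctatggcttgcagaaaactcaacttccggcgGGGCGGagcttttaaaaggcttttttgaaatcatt
The ITGA2 window holds 4 SP1 boxes and 76.4% G and C, while the ITGA1 window holds none of the 4 motifs and 62% G and C. The ITGA6 window holds 2 androgen receptor half-sites and 1 TATA box, and the ITGB5 window 2 SP1 boxes. The windows of other starts of these genes differ, since the second ITGA6 window holds 3 SP1 boxes and neither a half-site nor a TATA box, and the other ITGB5 windows hold 0 and 3 SP1 boxes. Among 35116 RefSeq windows of the same length, 42.6% hold an SP1 box, 4.2% an AP-1 site, 12.4% an androgen receptor half-site and 10.7% a TATA box. A match of letters is a description of the window and not a site in use.

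Among the receptors for RGD ligands, ITGAV and its partner ITGB5 were upregulated together. ITGAV on chromosome 2 (186590010 to 186680901, plus strand) encodes the alpha subunit of the vitronectin receptors. It was at 19.9, 18.7 and 20.0 FPKM in parental libraries and at 25.2, 28.1 and 26.4 FPKM in resistant libraries. The groups did not overlap, and the log2 fold change was 0.44 (standard error 0.09, limma adjusted p = 0.00670), which is a 1.36-fold difference of the means. This was the smallest difference among the DEGs of the group, of the same size as that of ITGA2 but with a narrower spread between replicates.

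ITGB5 on chromosome 3 (124761948 to 124901418, minus strand) encodes the beta subunit that makes ITGAV a vitronectin receptor. It was at 35.4, 38.3 and 39.1 FPKM in parental libraries and at 80.1, 82.8 and 66.9 FPKM in resistant libraries. All resistant values lay above all parental values, with means of 37.6 ± 1.96 and 76.6 ± 8.53 FPKM (SD, n = 3 each), a 2.04-fold difference. The log2 fold change was 1.02 (standard error 0.10, limma adjusted p = 4.56e-04).

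ITGB6 on chromosome 2 (160099667 to 160200313, minus strand) encodes a beta subunit of ITGAV that activates latent TGF-beta. It was at 0.0244, 0 and 0 FPKM in parental libraries and at 0.0565, 0.136 and 0.136 FPKM in resistant libraries, which corresponds to an estimated 2.2 reads in parental replicate 0 and to 4.4, 9.8 and 8.6 reads in the resistant libraries. At this depth a difference in ITGB6 was not tested, and no fold change is given.

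ITGA5 on chromosome 12 (54395261 to 54419266, minus strand) encodes the alpha subunit of the classical fibronectin receptor with ITGB1. It was at 11.9, 11.6 and 13.0 FPKM in parental libraries and at 14.5, 11.3 and 14.4 FPKM in resistant libraries. Resistant replicate 1 was the lowest of all 6 libraries and the other resistant libraries were the highest, so that the groups overlapped. Its log2 fold change was 0.13 with a 95% interval from −0.19 to 0.45 (limma adjusted p = 0.462).

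ITGB1 on chromosome 10 (32887273 to 33005792, minus strand), the common beta subunit, had the highest mean level of the group in both cells, although ITGB5 was above it in resistant replicates 0 and 1. It was at 86.8, 92.6 and 93.6 FPKM in parental libraries and at 72.8, 80.0 and 89.7 FPKM in resistant libraries. Only resistant replicate 2 lay within the parental range, and the log2 fold change was −0.18 with a 95% interval from −0.40 to 0.05 (limma adjusted p = 0.172). A gain of ITGB1 the size of that of ITGB5 lies outside this interval.

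**Figure D2:**
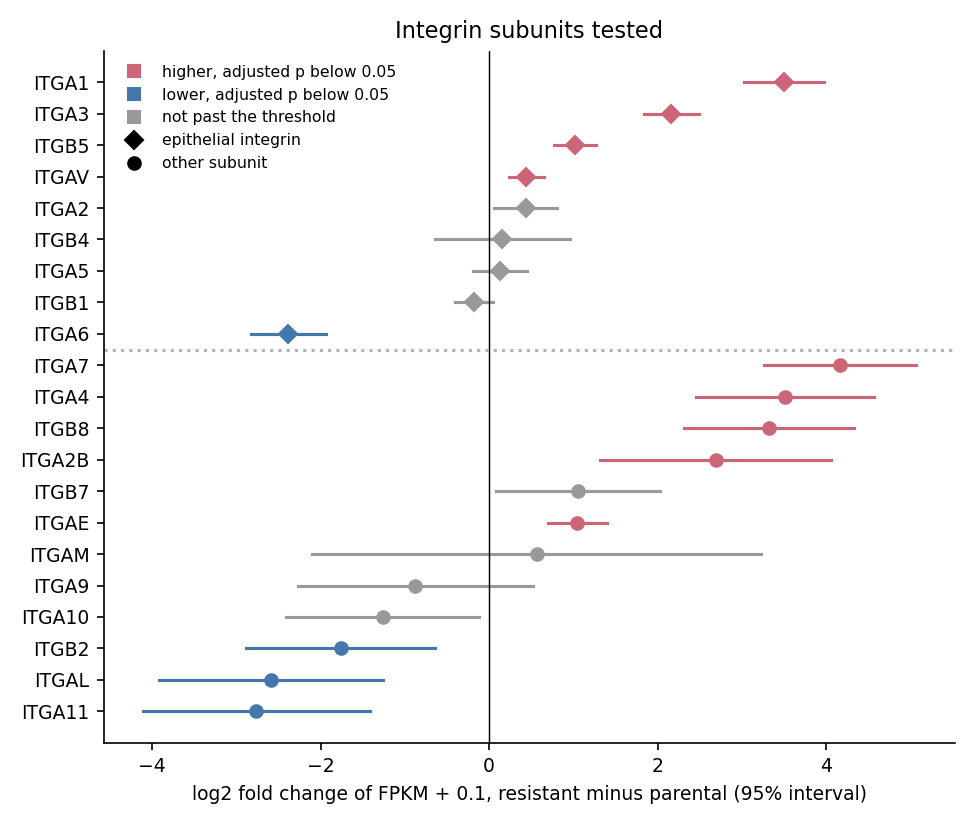
Log2 fold change of FPKM + 0.1 (x axis, resistant minus parental, bars for the 95% interval from limma) of each integrin subunit tested (y axis), with diamonds for the epithelial integrins and circles for the other subunits. Among the epithelial integrins ITGA1 (3.50) and ITGA3 (2.16) are farthest to the right, ITGA6 (−2.39) is farthest to the left, and the intervals of ITGB4, ITGA5 and ITGB1 include 0.

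The order of the levels differed between the cells. In parental libraries the mean level fell from ITGB1 through ITGB5, ITGAV, ITGA5, ITGA6, ITGA2, ITGA3, ITGB4 and ITGA1 to ITGB6. The neighbours ITGA5 and ITGA6, and ITGA2 and ITGA3, overlapped between libraries, and the other neighbours did not. In resistant libraries the order was ITGB1, ITGB5, ITGAV, ITGA3, ITGA5, ITGA1, ITGA2, ITGA6, ITGB4 and ITGB6. There ITGB1 overlapped with ITGB5, ITGA1 with ITGA2, and ITGA6 with ITGB4. The largest shifts in place were those of ITGA3 and ITGA1 upward and of ITGA6 downward.

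The make-up of the alpha subunit RNA changed more than its sum. The 6 alpha genes summed to 51.5, 52.8 and 56.0 FPKM in parental libraries and to 72.7, 76.3 and 77.1 FPKM in resistant libraries. ITGAV kept the largest share, at 36.6% ± 1.75 in parental and 35.3% ± 1.40 in resistant libraries (SD, n = 3 each). The share of ITGA6 was 22.6% ± 1.81 in parental and 2.98% ± 0.50 in resistant libraries, whereas that of ITGA3 was 7.27% ± 0.711 and 23.4% ± 0.646 and that of ITGA1 was 1.26% ± 0.0801 and 11.5% ± 1.32. The share of ITGA5 was 22.8% ± 0.674 in parental and 17.8% ± 2.66 in resistant libraries. The shares of ITGA6, ITGA3, ITGA1 and ITGA5 did not overlap between the groups, and those of ITGAV and ITGA2 did. Of the summed beta genes, ITGB1 made up 69.8% ± 0.0754 in parental and 50.6% ± 5.00 in resistant libraries, and ITGB5 28.8% ± 0.333 and 48.0% ± 5.26. ITGB4 and ITGB6 stayed at or below 1.63% and 0.0856% in every library.

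**Figure D3:**
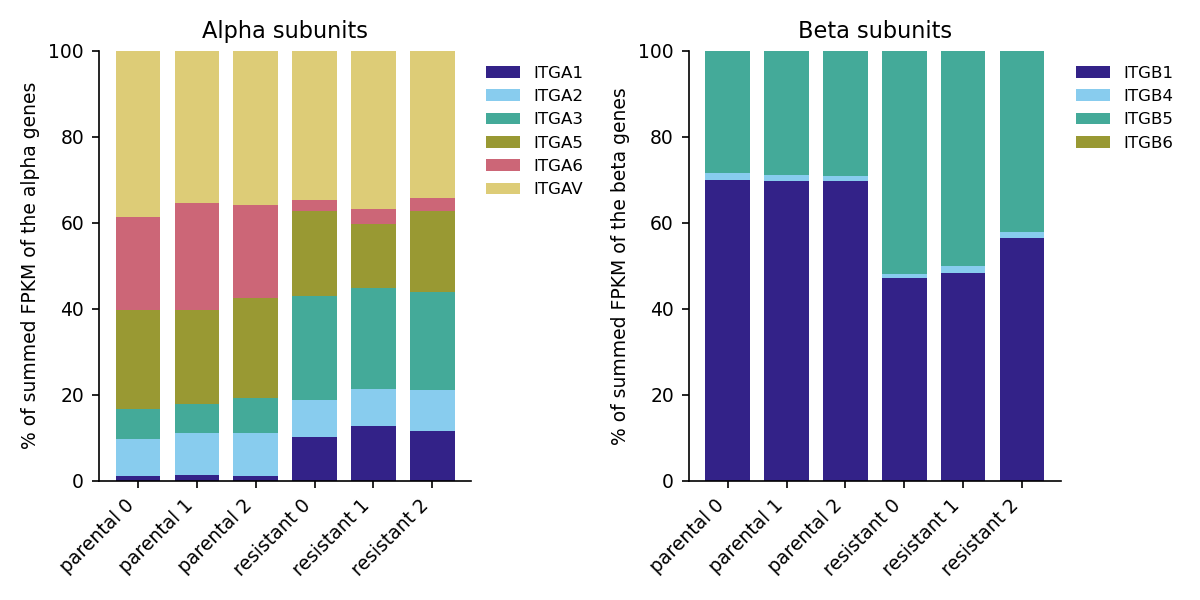
Stacked bars of the share of each gene (% of summed FPKM, y axis) among the 6 alpha genes on the left and the 4 beta genes on the right, with 1 bar per library (x axis). The ITGA6 segment is 21.6% to 24.7% in parental and 2.46% to 3.46% in resistant bars, and the ITGB5 segment is 28.5% to 29.1% in parental and 42% to 52.0% in resistant bars.

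Ratios between partner genes do not depend on a scaling factor per library. The level of ITGB4 relative to ITGA6, its only partner, was 0.182, 0.144 and 0.117 in parental libraries and 0.70, 0.956 and 1.02 in resistant libraries. All resistant ratios were above all parental ratios, and the mean log2 ratio was 2.60 higher (exact two-sided permutation test, p = 0.1, the smallest that 3 against 3 libraries allow). The level of ITGB1 relative to the sum of the 6 alpha genes of the group was 1.69, 1.76 and 1.67 in parental libraries and 1.00, 1.05 and 1.16 in resistant libraries. The mean log2 ratio of ITGB1 fell by 0.67, again without overlap (exact permutation p = 0.1). ITGAV and ITGA6 also pair with other beta subunits, and ITGB1 with alpha subunits left out of the sum. These ratios thus describe RNA and not receptors. The ratio of ITGB6 to ITGB5 was not computed, because ITGB6 was listed at 0 in 2 parental libraries.

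**Figure D4:**
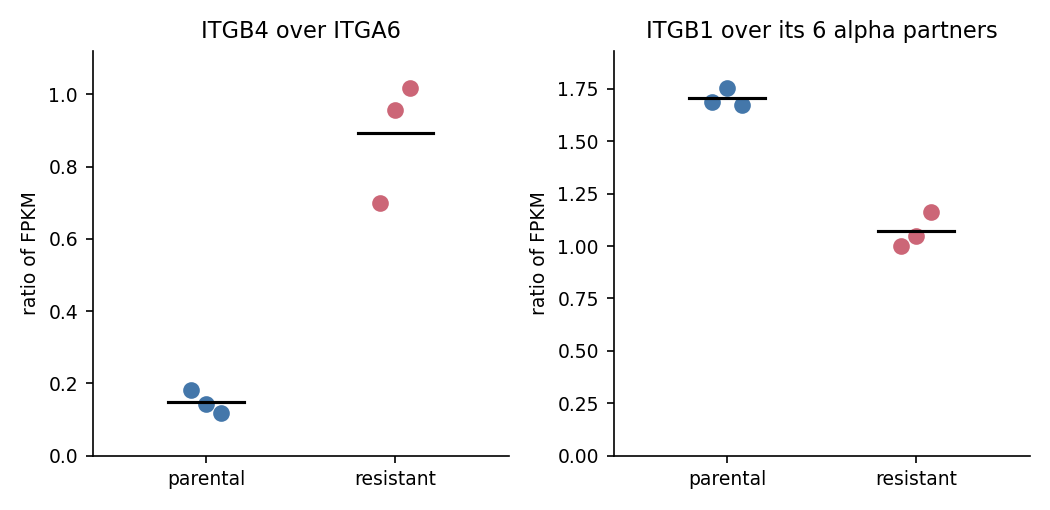
Ratio of FPKM (y axis) of ITGB4 to ITGA6 on the left and of ITGB1 to the sum of the 6 alpha genes of the group on the right, with 1 point per library and a line for the mean of the 3 libraries of each group (x axis). The ITGB4 ratio is at most 0.182 in parental and at least 0.70 in resistant libraries, and the ITGB1 ratio is at least 1.67 and at most 1.16.

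Of the other 16 integrin subunits, which serve mainly leukocytes, platelets, muscle and mesenchyme, 12 were tested, and 5 were upregulated and 3 downregulated in resistant cells. Over all genes tested, DEGs made up 44.4% (22.1% upregulated, 22.3% downregulated). Among genes averaging 1 FPKM or more they made up 53.2% (24.9% upregulated, 28.3% downregulated). The counts of other subunits were not tested against these shares and alone are not a result about these subunits. The 3 downregulated subunits, ITGA11, ITGB2 and ITGAL, all averaged below 1 FPKM, and with the fit restricted to genes averaging 1 FPKM or more, 3 were upregulated and 0 downregulated. Such a mean was reached by 4 subunits. ITGAE, the partner of ITGB7 that binds E-cadherin, was at 15.9, 11.3 and 12.4 FPKM in parental and at 25.9, 26.5 and 28.7 FPKM in resistant libraries, a log2 fold change of 1.04 (limma adjusted p = 0.00168). ITGA7, a laminin receptor subunit of muscle, was at 0.268, 0.340 and 0.123 FPKM in parental and at 4.22, 7.49 and 6.25 FPKM in resistant libraries, a log2 fold change of 4.16 (limma adjusted p = 2.89e-04). Both stood above the parental range in every resistant library. ITGA2B, the platelet fibrinogen receptor subunit, rose from 1.33 ± 1.21 to 7.19 ± 0.241 FPKM (SD, n = 3 each), with a log2 fold change of 2.69 (limma adjusted p = 0.00945). ITGB7 had a log2 fold change of 1.05 and did not pass the threshold (limma adjusted p = 0.0772). Among the subunits below 1 FPKM, which were looked up after their values were seen, the ITGAV partner ITGB8 was at 0.0932, 0.0996 and 0.0109 FPKM in parental and at 1.98, 1.19 and 1.49 FPKM in resistant libraries. Its level stayed below that of ITGB5 in every library.

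The laminin chains, the ligands of ITGA3 and ITGA6, were tested in 11 of 12 genes, and 3 were upregulated and 5 downregulated, with a median log2 fold change of −0.37 against −0.05 over all genes tested. DEGs made up 44.4% of all genes tested (22.1% upregulated, 22.3% downregulated) and 53.2% of those averaging 1 FPKM or more. The counts of this and the following partner lists were not tested against these shares and alone are not a result about the lists. LAMA3, the alpha chain of the laminin of epithelial hemidesmosomes, was at 65.7, 68.7 and 77.4 FPKM in parental and at 1.01, 0.982 and 1.46 FPKM in resistant libraries. This is a 61.2-fold lower mean (log2 fold change −5.84, standard error 0.18, limma adjusted p = 6.27e-06), so that LAMA3 and ITGA6 were both lower in every resistant library. LAMC3 fell from 8.96 ± 0.398 to 0.372 ± 0.0541 FPKM and LAMC1, the gamma chain of most laminins, from 172 ± 16.9 to 115 ± 12.1 FPKM (SD, n = 3 each).

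Of the integrin-binding collagens, 11 of 14 were tested, with 3 upregulated and 5 downregulated and a median log2 fold change of −0.66. Without parental replicate 0, 3 were downregulated. COL6A1 fell from 29.1 ± 3.75 to 1.78 ± 0.205 FPKM and COL6A2 from 9.92 ± 1.20 to 1.28 ± 0.0791 FPKM (SD, n = 3 each), both chains of the microfibrillar collagen VI. COL5A2, a fibrillar collagen chain, was at 0.326 ± 0.126 and 5.42 ± 1.17 FPKM and had a log2 fold change of 3.72 (limma adjusted p = 2.91e-04). The remaining collagen VI chain of the list, COL6A3, looked up after its values were seen, was at 0.0151, 0 and 0.532 FPKM in parental and at 0.341, 0.178 and 0.557 FPKM in resistant libraries and did not pass the threshold (limma adjusted p = 0.304).

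The RGD and matricellular ligands were tested in 18 of 20 genes, of which 10 were upregulated and 5 downregulated, with a median log2 fold change of 0.94. FN1, which encodes fibronectin, the ligand of ITGA5 and ITGAV, was at 200.1, 204 and 236 FPKM in parental and at 36.2, 51.7 and 43.2 FPKM in resistant libraries, a log2 fold change of −2.29 (limma adjusted p = 6.88e-05). TNC, which encodes tenascin C, was at 0.0218, 0.0207 and 0.102 FPKM in parental and at 36.1, 34.4 and 37.0 FPKM in resistant libraries, with a log2 fold change of 7.96 (limma adjusted p = 8.89e-06) that depends on the pseudocount. NPNT, which encodes the basement membrane protein nephronectin, rose from 0.220 ± 0.0171 to 12.2 ± 1.42 FPKM (SD, n = 3 each). TGFB1 and TGFB3, whose latent forms are held by ITGAV receptors, were chosen after their values were seen. TGFB1 was at 0.0606 to 0.816 FPKM in parental and at 7.25 to 10.9 FPKM in resistant libraries, and TGFB3 at 0 to 0.753 FPKM and at 9.92 to 17.5 FPKM.

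**Figure D5:**
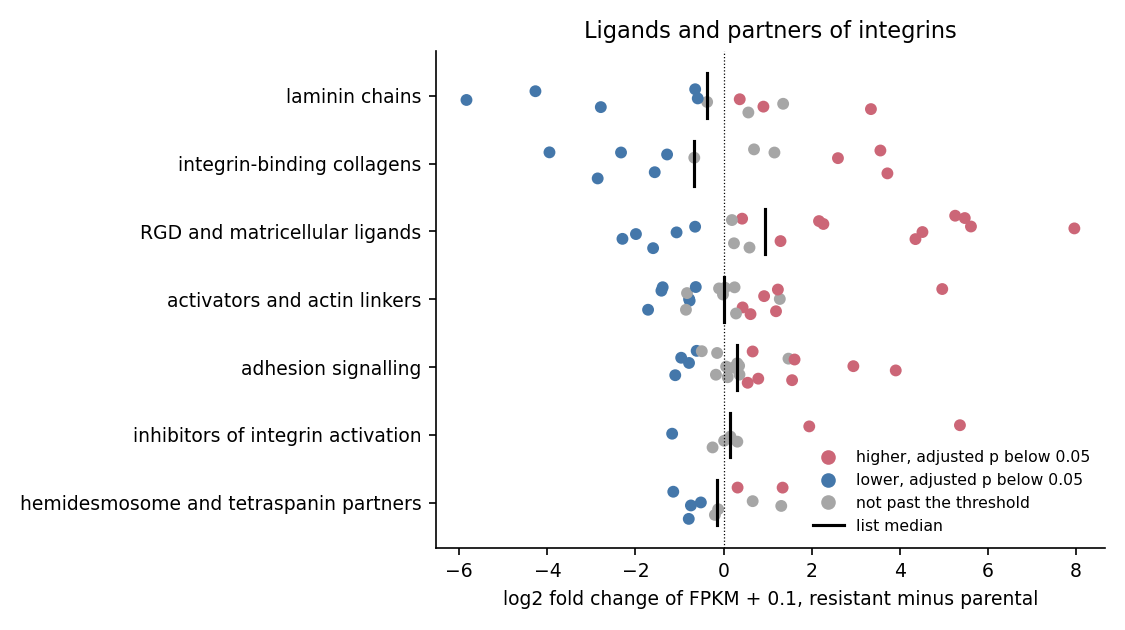
Log2 fold change of FPKM + 0.1 (x axis, resistant minus parental) of each tested gene of 7 lists of integrin ligands and partners (y axis), with 1 point per gene, red for upregulated, blue for downregulated and grey for genes not past the threshold, and a black line for the list median. The lowest point is LAMA3 (−5.84) among the laminin chains and the highest is TNC (7.96) among the RGD and matricellular ligands.

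Inside the cell, the activators and actin linkers were split evenly, with 6 upregulated and 6 downregulated of 20 tested and a median log2 fold change of 0.01. Without resistant replicate 2, 3 were upregulated. TES, a LIM protein of focal adhesions, rose from 24.7 ± 2.58 to 56.5 ± 3.46 FPKM and TNS3, a tensin that binds beta subunit tails, from 0.318 ± 0.263 to 11.5 ± 0.587 FPKM (SD, n = 3 each). RSU1, a partner of the ILK complex, fell from 36.4 ± 5.71 to 13.5 ± 0.284 FPKM. The talins and kindlins of the list, which switch the receptor on, were looked up after their values were seen. The kindlin FERMT3 was upregulated, with 2.36, 2.78 and 2.54 FPKM in parental and 5.68, 4.70 and 4.47 FPKM in resistant libraries (limma log2 fold change 0.92, adjusted p = 0.00636). The kindlins FERMT1 and FERMT2 had log2 fold changes of −0.01 and 0.25, and the talins TLN1 and TLN2 of −0.10 and −0.83, with limma adjusted p from 0.218 to 0.975, so that none of the other 4 passed the threshold.

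In the adhesion signalling list, 7 were upregulated and 4 downregulated of 21 tested, with a median log2 fold change of 0.31. PTK2B, the kinase PYK2, was at 55.2, 47.6 and 53.0 FPKM in parental and at 140.0, 164 and 155 FPKM in resistant libraries, a log2 fold change of 1.56 (limma adjusted p = 5.71e-05). Its relative PTK2, the focal adhesion kinase, which was chosen after its values were seen, had a log2 fold change of 0.06 (limma adjusted p = 0.615). ARHGEF6, an exchange factor of RAC1 and CDC42, rose from 0.0823 ± 0.0824 to 2.49 ± 0.331 FPKM, and the scaffold PXN (paxillin) fell from 32.0 ± 2.05 to 18.5 ± 1.28 FPKM (SD, n = 3 each).

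Of the 7 genes listed as inhibitors of integrin activation, 2 were upregulated and 1 downregulated, with a median log2 fold change of 0.16. Without resistant replicate 2, 2 were downregulated. The filamins, which compete with talin for the beta tail and also cross-link actin, did not move together. FLNA fell from 117 ± 4.71 to 52.2 ± 6.68 FPKM and FLNC rose from 0.0306 ± 0.0180 to 5.33 ± 1.14 FPKM (SD, n = 3 each). DOK1, an adaptor that binds beta tails, rose from 2.08 ± 0.543 to 8.13 ± 0.635 FPKM.

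Of the 10 hemidesmosome and tetraspanin partners, 2 were upregulated and 4 downregulated, with a median log2 fold change of −0.16. PLEC, the plectin that ties ITGB4 to keratins, fell from 74.3 ± 1.48 to 43.1 ± 4.96 FPKM (SD, n = 3 each), while ITGB4 itself did not pass the threshold. The tetraspanin CD63 rose from 361 ± 45.3 to 911 ± 40.8 FPKM and the tetraspanin CD9 fell from 327 ± 33.4 to 148 ± 12.0 FPKM.

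The genes whose profile over the 6 libraries was most like that of ITGA1 or ITGA6 were taken by the root mean square difference of centred log2 values among 12366 protein-coding genes averaging 1 FPKM or more. For ITGA1 they were HIST3H2BB (difference 0.0859), ALDH3A2 (0.126) and LRRC8A (0.140). For ITGA6 they were DHX36 (0.0839), TBRG1 (0.0927) and PRAME (0.108). None of these is an integrin or a member of the ligand and partner lists, and all profiles share the same 6 libraries in 2 groups.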

How the data were processed

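RNA-Seq of 3 C4-2B parental and 3 enzalutamide resistant libraries (single-end reads of 50 bp) was analysed. The authors trimmed the reads with TrimGalore, aligned them with STAR to GRCh38 with GENCODE v25 and deposited FPKM values made with Cufflinks. The submitters' processing notes also list Trimmomatic 0.27, FastQC 0.10.1 and the mouse build mm10, while the table holds human gene identifiers. The table names no unit, and FPKM was taken from the methods and the values. It gives no counts, and an exact 0 was read as listed at 0. How strand was used in counting is not given in the sources used here. No pair of libraries was identical.

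Of 28 gene symbols turned into dates, all were restored by identifier. Positions, gene types and transcript lengths came from GENCODE v44 (GRCh38) for 56980 identifiers, of which 99.9% overlapped their listed locus. Depth estimates assume fragments of 200 bases and rest on genes whose only transcript has 600 to 8000 bases. limma 3.58.1 in R 4.3.3 was run on log2(FPKM + 0.1) for genes averaging 0.1 FPKM or more, with a mean-variance trend and no further scaling. All p values are two-sided, with Benjamini-Hochberg adjustment over all 24468 genes tested and a threshold of 0.05. The fit was tested on simulated data. Python 3.11.15, numpy 2.4.6, pandas 2.3.3, scipy 1.17.1 and matplotlib 3.10.9 were used for tables, exact permutation tests and figures.

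The members and lists were chosen with earlier results of these data known. Named were all members, other subunits averaging 1 FPKM or more, the 3 genes of each partner list with the smallest adjusted p at 1 FPKM or more without overlap between groups, and the 3 genes nearest to the members with the largest increase and decrease. Marker genes and PELO, which overlaps ITGA1, were named outside this rule after their values were seen, as was any gene said to be chosen or looked up later. The promoter motifs were also chosen after the values were seen. The alternatives were the pseudocount, the filter, the scaling, the variance trend, a replicate block and each library left out.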

Additional observations from a re-analysis of the deposited data

How the results depend on the processing

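ITGA1, ITGA3, ITGAV and ITGB5 stayed upregulated and ITGA6 downregulated past the threshold under every alternative run, and the number of integrin DEGs was 5 or 6. The sixth was ITGA2, with an adjusted p of 0.0463 among genes averaging 1 FPKM or more, 0.0206 after median-of-ratios scaling and 0.0331 with equal library sums without the 10 highest genes, and of 0.0206 to 0.148 over all settings. ITGB4, not past the threshold in any setting, had a log2 fold change of −0.018 without resistant replicate 1 and of 0.46 without resistant replicate 0, the lowest and highest with a library left out, and the cause was not tested. With each library left out, the log2 fold changes ranged from 3.41 to 3.61 for ITGA1, 2.10 to 2.27 for ITGA3, 0.40 to 0.48 for ITGAV, 0.96 to 1.12 for ITGB5 and −2.50 to −2.24 for ITGA6. DEGs over all genes numbered 9021 to 11125, and 54 to 68 in the partner lists. The replicate number gave no clear pairing of the samples, with correlations of deviations between −0.003 and 0.0165 for equal numbers and −0.026 and 0.0201 for unequal numbers. Parental replicates 0 and 1 correlated best with the equal number and parental replicate 2 with another number. Values this small cannot settle whether the samples were paired. With a replicate block there were 9463 DEGs and the same 5 integrins. The ITGB4 to ITGA6 log2 difference was 2.13 to 2.76 and that of ITGB1 to the summed alpha genes of the group −0.74 to −0.63. In the partner lists, 11 adhesion signalling genes were upregulated after median-of-ratios scaling, 1 laminin chain and 1 hemidesmosome or tetraspanin partner without the variance trend, 1 collagen among genes averaging 1 FPKM or more, and 3 activators and actin linkers without resistant replicate 2. ITGB6 rests on fewer than 10 estimated reads per library.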
